A study of Arabidopsis thaliana with 12 samples.

Results

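Upon a shift of *Arabidopsis thaliana* plants from 16 °C to 25 °C, splicing was measured in 6 hormone genes. The genes are *ARF2* (AT5G62000) and *PIN7* (AT1G23080) of the auxin pathway, *BIM1* (AT5G08130) and *DWF1* (AT3G19820) of the brassinosteroid pathway, *LOG1* (AT2G28305) of cytokinin synthesis and *ABI2* (AT5G57050) of abscisic acid signaling. Every row of the deposited splicing table that carries one of these gene identifiers was taken, which gave 8 of 638 events, in 6 of 511 genes. The 2 events of *PIN7* have identical values in every group, so the 8 rows hold 7 distinct patterns. All groups were wild type Col-0 plants that had grown for 5 weeks at 16 °C in short days (8 h light, 16 h dark), and the labels name no treatment other than temperature. One group stayed in the cool and was sampled at day 1, and groups moved to 25 °C were sampled at days 1, 3 and 5. RNA from shoot tissue enriched for the apical meristem, pooled from about 10 plants per sample, was sequenced in 12 samples, 3 per group. Young leaves are named in the labels as well. The table holds no expression levels, so the tissue could not be checked against its marker genes.

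For each event the table gives the “Percentage of Spliced In” (PSI, written from 0 to 1), the share of a gene's transcripts with the isoform that serves as reference. For a retained intron it was read, by the convention of the MISO software, as the share that keeps the intron. The authors detected events with their own scripts, so this reading of retained introns is an assumption on which their directions below rest. For alternative 3′ sites (A3) and alternative 5′ sites (A5) no source used here names the reference isoform, so a higher PSI says only that the reference isoform gained share. There is 1 deposited value per group. No spread between samples can be given, no difference was tested, and the read depth behind a PSI is unknown beyond the authors' minimum of isoform-specific reads in the replicates. Values are rounded to 2 decimals, which leaves an error of up to 0.01 on any difference. The 3 warm groups are set against the same 16 °C group of day 1, so temperature and age cannot be told apart at days 3 and 5. Every listed event was called by the authors on at least 1 day, so the table holds no event that they tested and did not call.

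The 6 genes act at different steps of 4 hormone pathways. Auxin is moved between cells by efflux carriers of the PIN family, and its transcriptional output runs through AUXIN RESPONSE FACTOR proteins, of which *ARF2* encodes a repressor type that restrains organ and seed growth. Brassinosteroids, steroid hormones that promote cell elongation, are made from campesterol, whose formation needs the reductase encoded by *DWF1*, and *BIM1* encodes a bHLH protein that binds DNA together with the brassinosteroid-activated factor BES1. *LOG1* encodes an enzyme that releases active cytokinin, a hormone that maintains the shoot meristem, and *ABI2* encodes a type 2C protein phosphatase that holds back abscisic acid signaling until the hormone receptors inhibit it.

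Where an event lies in its gene is not in the table. The alternatives of the listed types were therefore looked up in the transcripts of the RefSeq annotation (TAIR10.1), and the study's own assembly may hold others. The annotation has a single candidate for 3 of the distinct events: the A5 event of *PIN7* and the A3 and retained intron events of *ARF2*. The sequences below show the sites between which the spliceosome chooses. Each runs 5′ to 3′ on the strand of the gene, with the first 2 bases (donor) or last 2 bases (acceptor) of each annotated intron in capitals. In *PIN7* (chromosome 1, 8180189 to 8183650, minus strand) the first intron has 2 annotated donor sites, 12 bases apart, in coding sequence (chr1:8182196-8182225).

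PIN7 donors: tcaaaatgGTgaaaacaaagGTttttaact

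Use of the downstream donor keeps 4 more codons, so that AT1G23080.1 encodes 619 residues and AT1G23080.3 and AT1G23080.4 encode 615. Both versions keep the reading frame. In *ARF2* (chromosome 5, 24910191 to 24915395, plus strand) the last intron ends in 2 annotated acceptors only 3 bases apart (chr5:24914800-24914828).

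ARF2 acceptors: tctgttaatgacAGcAGgatgggggtcga

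In the 4 *ARF2* transcripts that define this pair the site lies in the 3′ UTR, and all of them encode 859 residues. The single annotated retained intron of *ARF2*, 102 bases long (24910611 to 24910712), lies in the 5′ UTR, so neither choice alters the protein annotated for these transcripts. In AT5G62000.4 (853 residues), which splices from an earlier donor, the downstream acceptor of the pair borders coding sequence.

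*BIM1* (chromosome 5, 2606002 to 2610250, minus strand) has 8 annotated transcripts and 5 annotated A3 pairs at 3 introns, with 7 acceptor sites in all, and which of them the listed event measures is not given. The 3 windows are at chr5:2609345-2609415, chr5:2608363-2608392 and chr5:2607373-2607401.

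BIM1 acceptors, early intron: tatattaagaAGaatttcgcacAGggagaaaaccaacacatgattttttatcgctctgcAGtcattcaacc

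BIM1 acceptors, middle intron: gaatgtgtAGctgatgttgcAGcaactgtg

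BIM1 acceptors, late intron: catttacattatAGcAGagtaacaacaac

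The choice in the middle intron (12 bases) and in the late intron (3 bases) keeps the reading frame, as does that between the first pair of acceptors of the early intron, which are 12 bases apart. The third acceptor of the early intron removes 37 or 49 bases more and shifts the frame. Its transcripts, AT5G08130.1 and AT5G08130.3, are annotated with a later start and 409 and 408 residues, against 528 to 533 for the other transcripts.

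*ABI2* (chromosome 5, 23087122 to 23089631, plus strand) and *LOG1* (chromosome 2, 12081023 to 12084678, plus strand) each have 2 annotated retained introns in the coding region. The earlier *ABI2* intron (chr5:23087802-23087921) is 120 bases long and has no stop codon in the reading frame. It is shown whole, with its ends in capitals.

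ABI2 first intron: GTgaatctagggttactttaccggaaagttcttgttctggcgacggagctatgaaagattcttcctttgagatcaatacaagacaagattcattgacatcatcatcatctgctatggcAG

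Its retention adds 40 codons, the difference between AT5G57050.1 (423 residues) and AT5G57050.2 (383 residues). Each of the other 3 introns ends the protein when kept. They are shown from the first intron base to the stop codon of the transcript that keeps them, in capitals (chr5:23088864-23088886, chr2:12083559-12083624 and chr2:12084130-12084162).

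ABI2 later intron: gtaattatttaactttctctTGA

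LOG1 earlier intron: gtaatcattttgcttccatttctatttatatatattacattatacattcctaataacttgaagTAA

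LOG1 later intron: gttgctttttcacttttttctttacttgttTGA

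The stop falls after 23 bases in *ABI2*, whose AT5G57050.3 keeps both introns and encodes 312 residues, and after 66 and 33 bases in *LOG1*, where the transcripts that keep an intron encode 156 and 193 residues, those read from the intron included, against 213. In *DWF1* (chromosome 3, 6879524 to 6882315, minus strand) both annotated retained introns, 94 and 583 bases long, lie in the 5′ UTR and all 3 transcripts encode 561 residues.

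**Figure D1:**
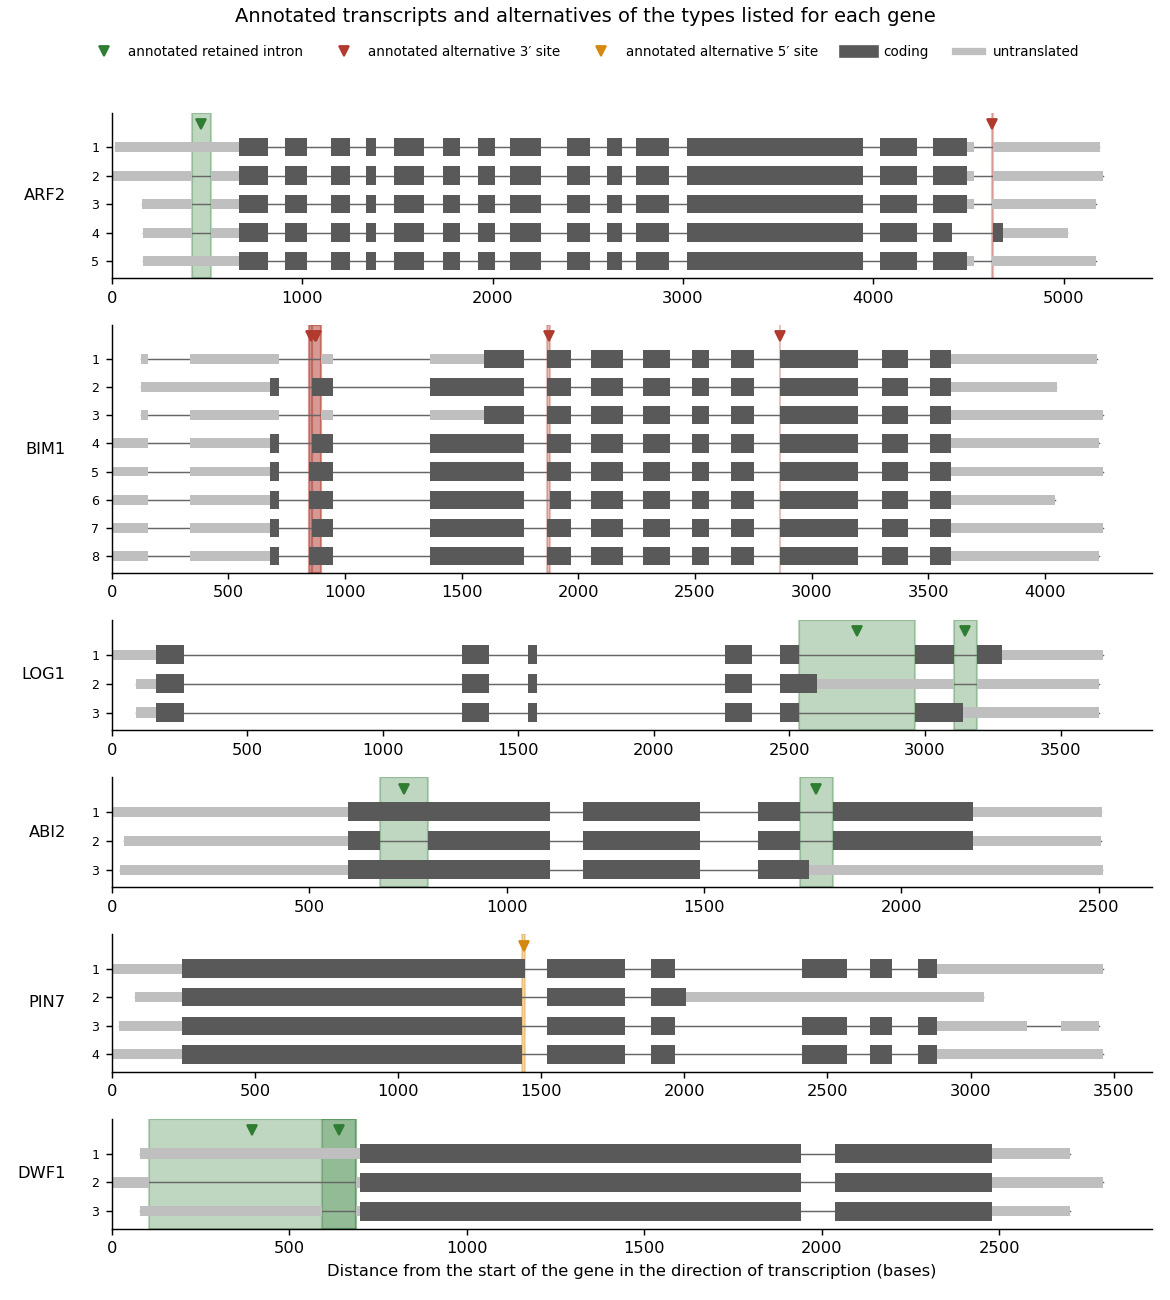
Annotated transcripts of the 6 genes (rows, numbered as in the annotation; dark boxes coding, light boxes untranslated), plotted by distance in bases from the start of the gene. Coloured bands and triangles mark annotated alternatives of the types listed for that gene. Those of ARF2 and DWF1 lie in untranslated sequence, and those of LOG1, ABI2, PIN7 and BIM1 reach coding sequence.

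Among the signaling genes, *BIM1* had the widest shift of the 6 genes in absolute PSI, though not as a ratio to the 16 °C share of the rarer isoform. Its A3 event had PSI of 0.32 at 16 °C and 0.46, 0.45 and 0.45 at days 1, 3 and 5 at 25 °C. The shift (ΔPSI, 25 °C minus 16 °C) was 0.14, 0.13 and 0.13, with a mean of 0.133 (0.123 to 0.143 with the rounding error), and the 3 warm groups differed from each other by no more than the rounding error. The reference isoform of *BIM1* thus had 1.42 times its share at 16 °C (1.38 to 1.46 with rounding). It was 1 of 8 hormone gene events with ΔPSI of at least 0.1, on each of the 3 days, and none was lower by as much. Among all listed events, 29.9% were higher and 30.9% lower by at least 0.1 on day 1, 32.1% and 27.7% on day 3, and 27.7% and 28.7% on day 5. For the mean of the days, 57.5% of the listed events differed by at least 0.1 in either direction. The hormone gene events were thus mostly small within this table, and *BIM1* itself was exceeded in absolute mean ΔPSI by 248 of the 638 events, and by 81 of the 213 A3 events. On the log-odds scale the mean difference of the deposited values was larger in size for *ABI2* (0.70) and *ARF2* retention (-0.64) than for *BIM1* (0.57). No rounding range was computed on this scale, where rounding weighs more at extreme PSI, so that order is uncertain. *ABI2* and *ARF2* retention were also the 2 of 8 events in which the share of the rarer isoform differed by a ratio of at least 1.5 in either direction, beside 68.3% of all listed events.

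*ARF2* carried a retained intron that was rarer at 25 °C and an A3 event whose reference isoform was more frequent. Retention had PSI of 0.13 at 16 °C and 0.08, 0.07 and 0.07 at days 1, 3 and 5. All 3 warm groups were below the cool group, with a mean ΔPSI of -0.057 (-0.067 to -0.047 with rounding), which left 0.564 times the share of intron-keeping transcripts (0.506 to 0.627). The A3 event had PSI of 0.42 at 16 °C and 0.46, 0.47 and 0.48 at days 1, 3 and 5, a mean ΔPSI of 0.05 (0.04 to 0.06). In absolute terms the shifts are alike in size, but relative to the 16 °C share the A3 isoform stood at 1.12 times (1.09 to 1.14), nearer to 1 than retention. The difference between the 2 events was not tested.

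Among the hormone genes with a listed retained intron, *ABI2* was the only one in which most transcripts kept it. Which of its annotated introns the event measures is not given. PSI was 0.9 at 16 °C and 0.94, 0.96 and 0.94 at days 1, 3 and 5. Read from the spliced isoform, its share was 0.1 at 16 °C and 0.06, 0.04 and 0.06 in the warm groups. The mean ΔPSI was 0.047 (0.037 to 0.057), and the spliced share was 0.533 times that at 16 °C (0.46 to 0.614 with rounding). The day with the highest PSI was day 3, by 0.02 over the other warm days.

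**Figure D2:**
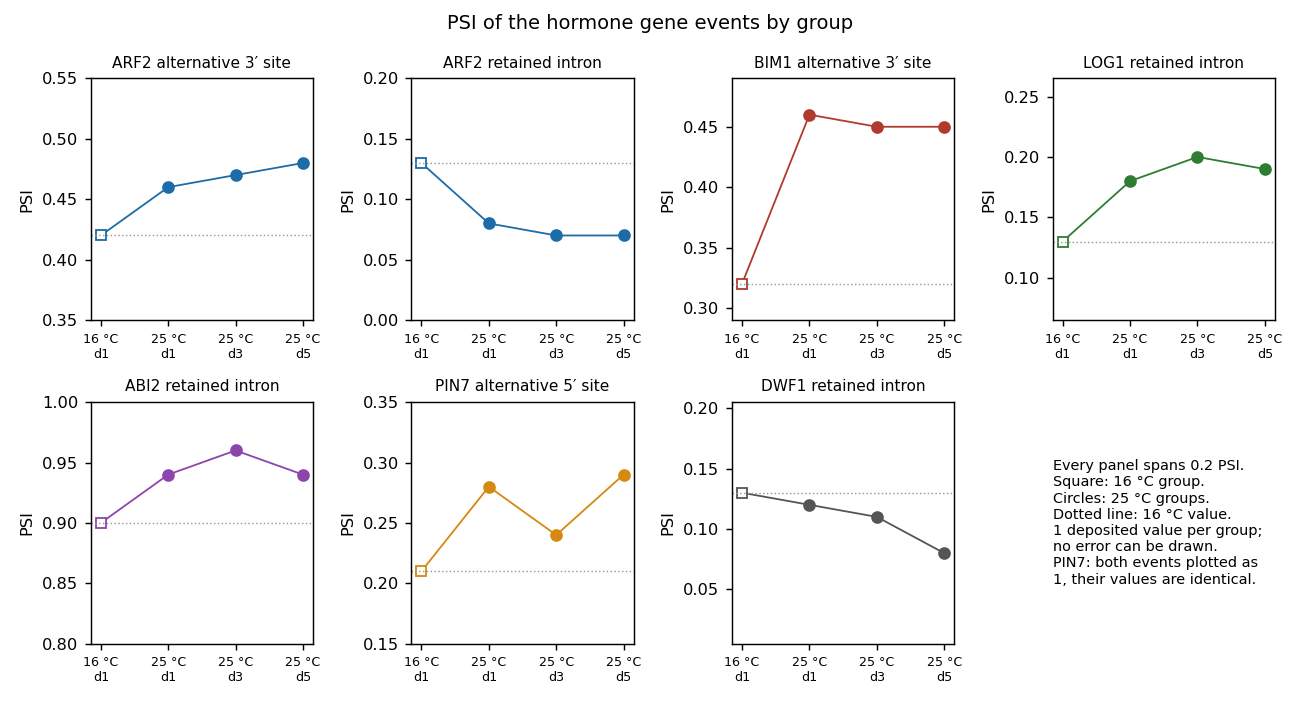
PSI (vertical axis) of the 7 distinct hormone gene events in the 16 °C group (square) and the 25 °C groups at days 1, 3 and 5 (circles). Each panel spans 0.2 PSI and each point is the 1 deposited value of a group. BIM1 stepped from 0.32 to 0.46 by day 1 and stayed there, while DWF1 was at 0.12 on day 1 and 0.08 on day 5.

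The transport gene *PIN7*, which encodes an auxin efflux carrier of the plasma membrane, had 2 A5 rows with the same PSI values, 0.21 at 16 °C and 0.28, 0.24 and 0.29 at days 1, 3 and 5. Both belong to the same assembled locus, and the table does not say how they differ, so they were read as 1 measurement. All warm groups were above the cool group, with ΔPSI of 0.07, 0.03 and 0.08 and a mean of 0.06 (0.05 to 0.07), and the isoform had 1.29 times its 16 °C share (1.23 to 1.34). The warm groups spanned 0.05, the widest range among the hormone genes, because day 3 was nearer to the cool group than days 1 and 5. With 1 value per group this dip was not tested. The range over the warm days had a median of 0.02 in the hormone gene events and of 0.05 in all listed events.

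In the synthesis genes, both events were retained introns that began at the same level and moved apart. *LOG1* had PSI of 0.13 at 16 °C and 0.18, 0.2 and 0.19 at days 1, 3 and 5, a mean ΔPSI of 0.06 (0.05 to 0.07) and 1.46 times the 16 °C share of intron-keeping transcripts (1.37 to 1.56). All 3 warm groups were above the cool group. *DWF1* had 0.13 at 16 °C and 0.12, 0.11 and 0.08 at days 1, 3 and 5, so that retention was lower in the warm groups, by 0.01, 0.02 and 0.05. The day 1 difference is no larger than the rounding error. By day 5 retention of *DWF1* was 0.615 times its 16 °C share, and 20% of the day 5 difference was present on day 1. In the other 6 distinct events at least 66.7% of it was present by then. Such shares divide small differences that are each uncertain by 0.01, so they are rough. The mean ΔPSI of *DWF1*, -0.027 (-0.037 to -0.017), was the smallest of the hormone genes, and 630 of the 638 listed events had a larger absolute mean.

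**Figure D3:**
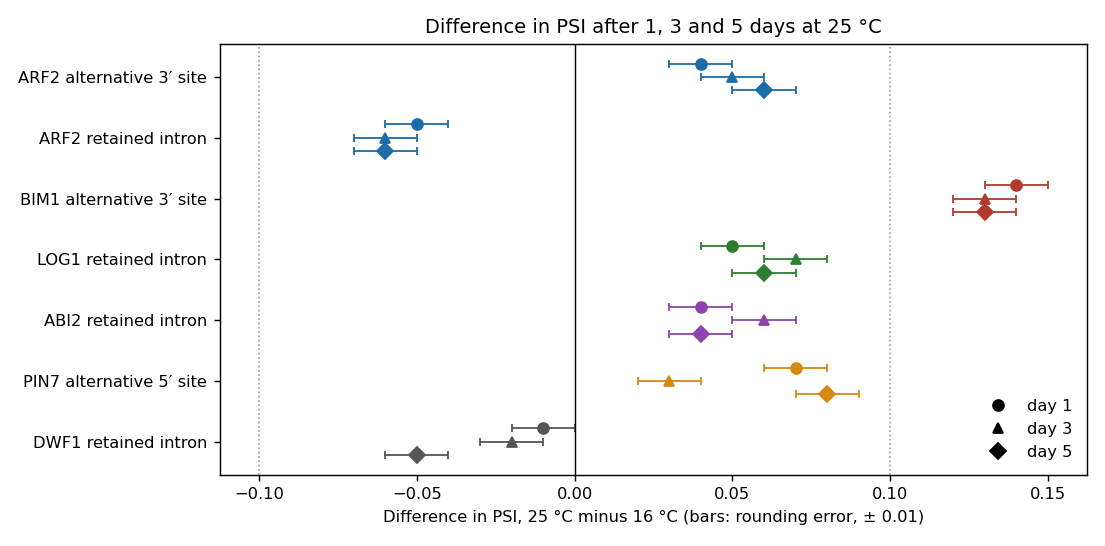
Difference in PSI (25 °C minus 16 °C, horizontal axis) of each distinct hormone gene event at days 1, 3 and 5. Bars give the rounding error of 0.01 and not a spread between samples, and dotted lines mark 0.1 in either direction. Only BIM1 lies beyond a dotted line, and only the day 1 bar of DWF1 reaches 0.

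The retained introns of *ARF2*, *LOG1* and *DWF1* had the same PSI of 0.13 at 16 °C and after 5 days at 25 °C stood at 0.07, 0.19 and 0.08. At 16 °C these 3 cannot be ordered. At day 5, *LOG1* was above the other 2 by more than the rounding error, and *ARF2* and *DWF1* differed by 0.01, within it. Among the 52 listed retained introns with a 16 °C PSI of 0.08 to 0.18, these 3 included, 33 had a higher and 19 a lower mean PSI at 25 °C. Their median absolute mean ΔPSI was 0.0633 (0.0667 over the 49 of other genes), close in size to the values of *ARF2* and *LOG1*. That of *DWF1*, at -0.027, was smaller in size.

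In all, mean PSI was higher at 25 °C in 6 and lower in 2 of the 8 hormone gene events (5 and 2 with the *PIN7* rows counted once), beside 50.6% higher among all listed events. The higher ones mix retained introns with alternative sites whose reference isoform is not known, so the count gives no common direction of splicing. All 8 kept their sign over the 3 days, as did 623 of the 638 listed events. The 3 comparisons share the 16 °C group. The median absolute mean ΔPSI was 0.0583 for the hormone gene events (0.0567 with the *PIN7* rows counted once) and 0.113 for all listed events. The values of 4 of the 8 events were at or below 0.2 or at or above 0.8 at 16 °C, where there is less room to change in one direction, and over those 4 the median was 0.0517, against 0.0817 over the 294 listed events in the same ranges. Of the 8 events, 6 reached 0.05 in absolute mean ΔPSI, beside 90.9% of all listed events. These 6 include both *PIN7* rows and the *ARF2* A3 event, which lies exactly on that limit. Without a deposited value for reads per event, the part of depth in these sizes was not tested.

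**Figure D4:**
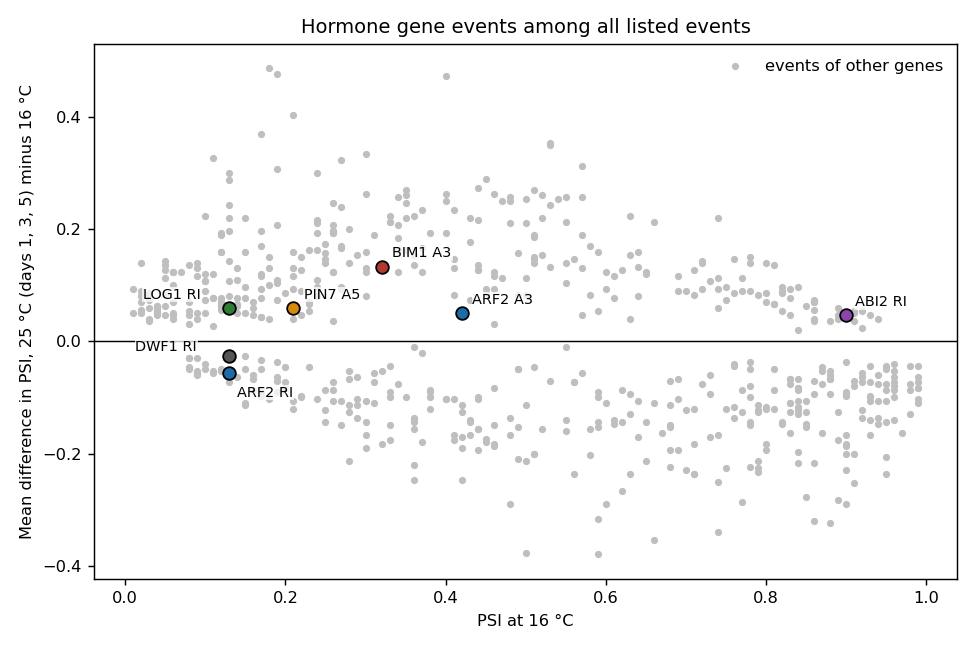
Mean difference in PSI over days 1, 3 and 5 (25 °C minus 16 °C, vertical axis) against PSI at 16 °C (horizontal axis) for all listed events (gray) and the 7 distinct hormone gene events (coloured; RI, retained intron). The hormone gene events run from -0.057 for ARF2 retention to 0.133 for BIM1, the only one beyond 0.1.

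Each member was the only gene in the table that was matched to its family by symbol. Families of the 4 pathways were listed by gene symbol and counted 207 genes in the reference gene table, of which the same 6 had an event (2.9%), beside 483 of 27562 protein-coding genes (1.75%). The genes were chosen from the table, so nothing is read from the first share. They were 1 of 46 auxin response genes (*ARF2*), 1 of 11 auxin transport genes (*PIN7*), 1 of 31 brassinosteroid signaling genes (*BIM1*), 1 of 9 brassinosteroid synthesis genes (*DWF1*), 1 of 21 cytokinin synthesis genes (*LOG1*) and 1 of 9 abscisic acid phosphatase genes (*ABI2*). None of the 5 auxin receptor, 14 auxin synthesis, 7 cytokinin breakdown, 13 cytokinin signaling and 14 abscisic acid receptor genes matched by symbol was listed, nor were the kinase (9), transcription factor (8) and synthesis (10) genes of abscisic acid. A gene that is not listed may have been spliced alike in all groups, have had too few reads or have passed no call, and symbols can miss genes of a family.

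Events of other genes with the most similar PSI course were found by the Euclidean distance over the 4 PSI values, within the same event type. For *ARF2* retention it was AT1G33110, which encodes a MATE efflux family protein (0.12 at 16 °C and 0.08, 0.07 and 0.06 at days 1, 3 and 5; distance 0.0141 among 242 events). For *ABI2* it was *COX19-2* (AT1G69750; 0.91, then 0.94, 0.97 and 0.93; distance 0.0173) and for *LOG1* AT4G12990, of unknown function (0.11, then 0.18, 0.19 and 0.19; distance 0.0224). The nearest course to *DWF1* was that of *ARF2* retention, at a distance of 0.0574, with the gap on days 1 and 3. For *PIN7* it was *PPL2* (AT2G39470; 0.19, then 0.25, 0.26 and 0.28; distance 0.0424), which has no dip on day 3. For *BIM1* it was *KICP-02* (AT3G50240; 0.3, then 0.44, 0.44 and 0.39; distance 0.0671). The *ARF2* A3 event had no near neighbor: the closest of 211 A3 events was that of the bromodomain gene AT1G58025 at 0.0949, with a mean ΔPSI of 0.137 against 0.05 for *ARF2*.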

How the data were processed

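The authors mapped reads to TAIR10 with TopHat2, which the submitters' processing notes call TopHat. Isoforms were assembled with Cufflinks, events were detected with the authors' own scripts and PSI was estimated with MISO. Events with enough isoform-specific reads that differed less within than between conditions were kept. No source used here gives the versions of these tools. The deposited values are PSI as a fraction, 1 per group, rounded by the authors to 2 decimals. PSI was estimated per sample and on the merged replicates of a condition, and calls were made on the latter. The table does not state which its single value per group is. A further column holds the days on which the authors called an event. It was not used. Depth per event is not in the table and is known only to pass the authors' minimum, so no interval is given.

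PSI differences, ratios, ranks and distances were computed in Python 3.11.15. The limits of 0.1 and 0.05 are sizes, not tests. Coding spans in the table equal those of the TAIR10.1 annotation for 476 of 483 genes, among them all 6 described here, and sequences are from RefSeq TAIR10.1. No gene overlaps the 6, except AT3G19810 at the 3′ end of *DWF1*. Named events are all those of the 6 genes, their nearest neighbors and listed family members. The genes and lists were chosen with earlier results of these data known. Counting and event matching were checked on simulated tables. Alternatives covered single days, leaving out a day, the median of the days, log-odds, rounding, other size limits, a ratio (over all listed events added after seeing the data), identical events counted once, event types and, added after seeing the data, events with extreme PSI at 16 °C.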

Additional observations from a re-analysis of the deposited data

How the results depend on the processing

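None of the 63 alternatives run on the 7 distinct differences changed a direction. None could have done so, because each difference had the same sign on all 3 days, so nothing is read from this. Of the 56 on the PSI scale, 49 moved the value by no more than the rounding error of 0.01. Among these 49 is the rounding alternative of each event, which moves the value by 0.01 by construction. The other 7 on the PSI scale moved it further and are given next, for *DWF1*, *PIN7* and *ABI2*. Outside the 56 were 7 on the log-odds scale, where *ABI2* and *ARF2* retention exceeded *BIM1* in the deposited values, an order that rounding leaves uncertain. The mean ΔPSI of *DWF1* (-0.027) rests on day 5: it was -0.01 on day 1 alone, -0.05 on day 5 alone and -0.015 without day 5. That of *PIN7* (0.06) was 0.03 on day 3 alone, 0.08 on day 5 alone and 0.075 without day 3, and that of *ABI2* (0.047) was 0.06 on day 3 alone. The count of events past the limit of 0.1 (1, *BIM1*) depends on the limit and the scale: it was 6 at 0.05 and 0 at 0.2, where the share of all listed events was 90.9% and 16.8% instead of 57.5%, and 2 (*ARF2* retention and *ABI2*) for a ratio of at least 1.5 in the rarer isoform, which 68.3% of all listed events passed. The median absolute ΔPSI of all listed events was 0.0817 instead of 0.113, and that of the hormone gene events 0.0517 instead of 0.0583, over events with extreme PSI at 16 °C. No replicate could be left out and no test run, because the table has 1 value per group. No paired analysis was possible because the columns carry no replicate letters. A difference of 0.01 cannot be told from 0 after rounding, and the unknown depth limits every value.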
